A study of Homo sapiens with 8 samples.

Results

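The 9 genes described here encode the proteins that remove or recognise N6-methyladenosine (m6A), the internal methyl mark of messenger RNA: the erasers FTO and ALKBH5, the YTH-domain readers YTHDF1, YTHDF2, YTHDF3 and YTHDC1, and the IGF2BP readers IGF2BP1, IGF2BP2 and IGF2BP3. The measurement is not of m6A but of trimethylated lysine 36 of histone H3 (H3K36me3) on the DNA of these genes. Peaks were assigned to a gene when they overlapped its hg19 span by at least 1 bp. This gave 58 of the 35375 peaks called in control cells and 38 of the 23488 called after SETD2 knockdown, or 96 of 58863 peaks in all. All 9 genes had at least 1 peak in the control list, and 7 had one in the knockdown list.

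H3K36me3 is placed by SETD2, which travels with elongating RNA polymerase II, so the mark lies over the bodies of transcribed genes and usually leaves the promoter bare. It has been linked to m6A because the m6A writer protein METTL14 can bind it. FTO and ALKBH5 are oxygenases that demethylate m6A. YTHDF1, YTHDF2 and YTHDF3 are cytoplasmic readers known for effects on translation and decay of marked RNA, and YTHDC1 is the nuclear reader, known for effects on splicing and export. The IGF2BP proteins stabilise their target RNAs. IGF2BP1 and IGF2BP3 are fetal genes that are often active again in liver cancer.

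The cells were HepG2, a human hepatocellular carcinoma line, in 2 conditions: a non-specific control shRNA, or an shRNA against SETD2. Both conditions received the shRNA by lentivirus, with polybrene, and were selected with puromycin. Each condition had 2 replicates of H3K36me3 immunoprecipitate and 2 of input DNA, 8 libraries in all, and the replicates were pooled before peaks were called. With 1 list for each condition, replicate error cannot be estimated, and differences between the conditions carry no test. The antibody was the same lot in both.

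After duplicate removal, immunoprecipitate depth was 47880817 tags for the control pool and 67053273 for the SETD2 pool, so the shorter knockdown list did not come with fewer tags. Over all chromosomes the knockdown peaks covered 48.4% of the control length. The amount of SETD2 and the RNA levels of the 9 genes were not analysed here. Tag density is the number of tags per kb, divided by the filtered total and multiplied by 1000000, with exact Poisson 95% intervals that cover counting error only. It is not corrected for input or for chromosome copy number. The fold enrichment over input, the score and the false discovery rate (FDR) of a peak are the authors' values, set separately in each list, so a limit on one of them is not an equal limit in the other list. Positions are in hg19 unless said otherwise.

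The first question was how much of each gene carried called H3K36me3 in the presence and absence of the SETD2 shRNA. Of the 975 kb that the 9 spans add up to, 465 kb (47.7%) lay in control peaks and 201 kb (20.6%) in knockdown peaks, so the knockdown covered 43.3% of the control length. The same ratio over the whole lists was 48.4%. The genes ranged from 0% to 75.9% of their own control coverage.

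**Figure D1:**
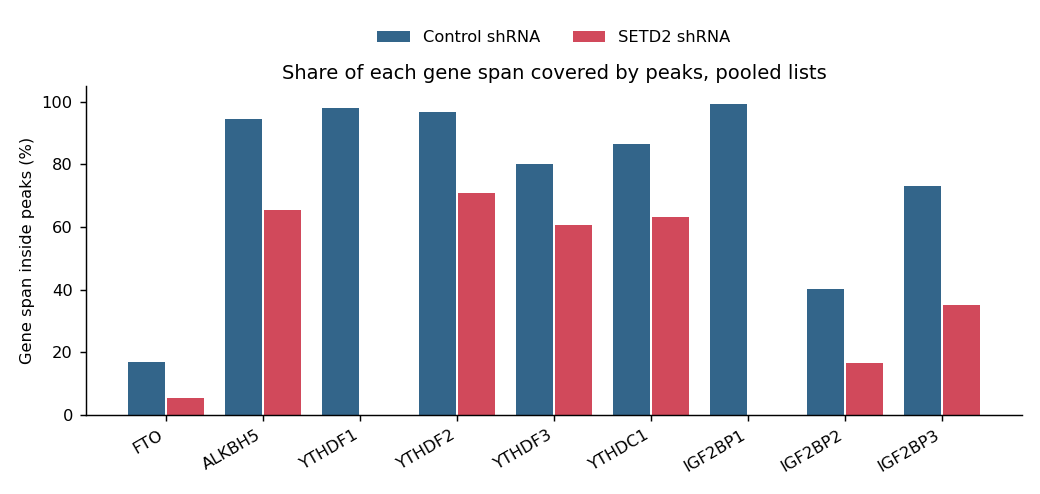
Share of each gene span (%) inside H3K36me3 peaks, in the control list (blue) and the SETD2 knockdown list (red), with 1 pooled list per condition and no error bars. Coverage was lower in the knockdown at all 9 genes, and YTHDF1 and IGF2BP1 had none.

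Over the whole list, 39.5% of control peaks had a knockdown peak. The erasers kept a knockdown peak over 6 of 20 control peaks, and coverage went from 94.2 to 39.5 kb, in both lists more at FTO than at ALKBH5. The YTH readers kept 6 of 11 and went from 122 to 75.5 kb. The IGF2BP readers kept 13 of 27 and went from 248 to 86.3 kb. Relative to the control, coverage in the knockdown was therefore 41.9%, 61.8% and 34.7%, with YTHDF1 and IGF2BP1 counted at 0. Leaving out these 2 genes, a choice made with the data in view, gave 74.1% for the YTH readers, 45.4% for the IGF2BP readers and 52.1% for the 7 genes left.

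In the share of control peaks kept, the 9 genes stood near the whole list, and their other shares differed from it, which was not tested. A knockdown peak lay over 25 of their 58 control peaks (43.1%), beside 39.5% of all control peaks. Of their 38 knockdown peaks, 37 (97.4%) lay over a control peak, a higher share than the 83.0% of all knockdown peaks. With the FDR held to 5%, 24 of the 58 control peaks were left, a lower share than the 50.5% of the whole control list. Of the 38 knockdown peaks 4 were left, a higher share than the 5.30% of the whole knockdown list. Those 4 lay at ALKBH5 (2), YTHDF2 (1) and YTHDF3 (1). This FDR corresponds to a score (minus 10 times the log10 of the caller's p-value) of at least 227.88 for control peaks and 939.74 for knockdown peaks, so it is the stricter limit in the knockdown. Under it the knockdown covered 11.1% of the control length, against 39.0% with a score of 100 or more in both lists, and FTO, YTHDC1, IGF2BP2 and IGF2BP3 joined the genes with no coverage in the knockdown. The control peaks without a knockdown peak had the lower median fold enrichment, 3.77 against 6.03 for those with one; over the whole list the medians were 4.22 and 7.34. One control peak stood up to 5000 bp outside a span and was not counted, 3002 bp before the start of FTO, with 85 tags and a fold enrichment of 3.39. RefSeq (GRCh38.p14) has the gene RPGRIP1L within 5000 bp of FTO on that side, so this peak may belong to either gene.

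In the control the mark began within a few kb of the start at the shorter genes and much further in at FTO and IGF2BP2. Starts are known here from RefSeq strands for 7 genes, and YTHDF3 and IGF2BP1 are described from their lower coordinate. The first covered base in the control lay 0.441 kb after the start at YTHDF1, 1.102 kb at YTHDF2, 1.43 kb at ALKBH5 and 2.17 kb at YTHDC1. At the longer genes it lay 4.58 kb in at IGF2BP3, 11.7 kb at IGF2BP2 and 42.7 kb at FTO. No control peak thus covered the start of any of these 7 spans. At the other end, the control peaks of YTHDF1, ALKBH5 and YTHDF2 ran 1.499, 1.32 and 2.14 kb past the span.

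The 150 bases that lead up to the annotated start are shown for the 3 genes with exactly 1 control peak, since at each of them that peak began past the start. They come from RefSeq on GRCh38.p14, a different build from that of the peaks, and were matched by symbol; 7 of the 9 genes had an entry. Capitals mark each CG dinucleotide, the site of DNA methylation, and each sequence reads 5′ to 3′ along the gene. For YTHDF1 it is chr20:63216132-63216281 (minus strand), for ALKBH5 chr17:18183678-18183827 (plus strand) and for YTHDF2 chr1:28736474-28736623 (plus strand, the first of 2 entries).
YTHDF1: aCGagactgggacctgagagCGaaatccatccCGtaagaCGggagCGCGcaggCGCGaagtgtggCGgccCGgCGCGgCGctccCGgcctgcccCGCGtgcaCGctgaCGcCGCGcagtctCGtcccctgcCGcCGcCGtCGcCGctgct
ALKBH5: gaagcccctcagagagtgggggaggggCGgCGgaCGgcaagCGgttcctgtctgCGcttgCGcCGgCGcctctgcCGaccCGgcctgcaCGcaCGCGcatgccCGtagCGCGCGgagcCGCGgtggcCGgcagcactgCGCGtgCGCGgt
YTHDF2: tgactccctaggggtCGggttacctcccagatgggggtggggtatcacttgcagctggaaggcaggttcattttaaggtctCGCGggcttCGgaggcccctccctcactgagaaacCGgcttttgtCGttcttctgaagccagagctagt
The full 300-base window around the start held 50 CG dinucleotides at YTHDF1, more than 98.7% of the 35116 windows in the table, and 39 at ALKBH5, more than 91.3%. At YTHDF2 it held 16, more than 52.5%, and 43 in its second entry, more than 95.02%. CG was counted once per position, since it reads the same on both strands. The median over all windows was 14 (quartiles 4 and 28). These counts describe the letters only.

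YTHDF1 and IGF2BP1 were the genes with no knockdown peak, and in the control they were the densest of the 9. YTHDF1 had 1 control peak, chr20:61825282-61847097, 21.8 kb wide with 3927 tags. Its density was 3.76 (3.64 to 3.88) and its fold enrichment 14.46, above 95.7% of control peaks. It covered 97.9% of the gene and had a score of 3100. No knockdown peak lay nearer than 244 kb on the lower side or 384 kb on the upper side. Within 500 kb of the span, 11 of the 23 other control peaks did have a knockdown peak, so the surroundings were not free of calls. On the whole of chromosome 20, 24.4% of control peaks had one.

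IGF2BP1 had 2 control peaks that together covered 99.2% of the gene. The larger, chr17:47081080-47134487, was 53.4 kb wide and held 9314 tags, rank 91 by width and rank 88 by tags among the 35375 control peaks. Its density was 3.64 (3.57 to 3.72) and its fold enrichment 19.84, above 98.9% of control peaks. The smaller, chr17:47075128-47080970, lay at the lower end with 351 tags, a density of 1.25 (1.13 to 1.39) and a fold enrichment of 3.08. The nearest knockdown peaks lay 98.4 kb below and 347 kb above the gene. Of the 12 other control peaks within 500 kb, 5 had a knockdown peak, and on chromosome 17 the share was 39.0%. ALKBH5, on the same chromosome, did keep peaks.

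The absence of a call at these genes gives no knockdown level, because tags are listed only inside peaks. Strong control peaks without a knockdown peak were not rare in the whole list. A knockdown peak lay over 91.8% of control peaks with more than 2000 and up to 3000 tags, over 84.9% of those above 3000 and up to 5000, and over 65.4% (95% exact binomial interval 60.95 to 69.7%) of the 477 with more than 5000. Of the 9 genes' peaks, 2 of 2, 2 of 3 and 0 of 1 were kept in these classes, the last being that of IGF2BP1. Among the 130 control peaks of 50 kb or more, 34 had no knockdown peak. Whether peak calling over very large domains has a part in this lower share, and in the absent calls at YTHDF1 and IGF2BP1, was not tested.

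**Figure D2:**
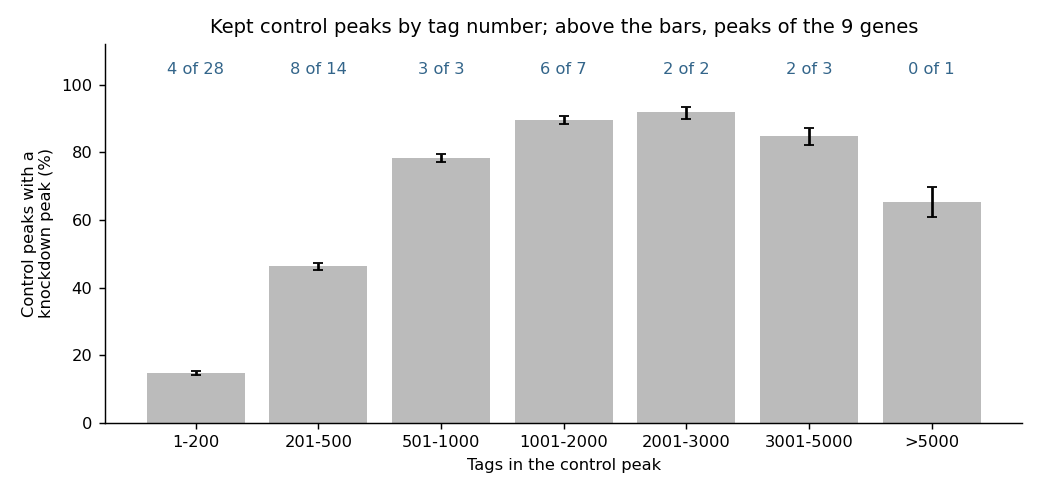
Percent of all control peaks that had a knockdown peak over them, by the number of tags in the control peak, with exact 95% binomial intervals; the counts above the bars are for peaks of the 9 genes. The share was highest, 91.8%, in the class that ends at 3000 tags and 65.4% above 5000.

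Where a wide control domain was kept, it was called in the knockdown as several shorter peaks. The 9 genes held 8 control peaks of 20 kb or more among their 58, beside 5.86% of all control peaks, and a knockdown peak lay over 6 of them, beside 84.2% of all such control peaks. Each of these 6 was covered by 2 or more knockdown peaks, beside 74.2% of all kept control peaks of that width. Over all widths it was 9 of the 25 kept peaks, beside 26.5% of the whole list. None of their 38 knockdown peaks reached 20 kb as called, beside 1.39% of all knockdown peaks, so the count is near that of the whole list. The breaks between knockdown peaks can be short. Knockdown peaks lay over 99.4% of the control domain at the far end of IGF2BP3 and 88.0% of that of YTHDC1. The numbers and widths of peaks thus depend on how domains are split: merging peaks within 3000 bp gave 31 control and 27 knockdown peaks.

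**Figure D3:**
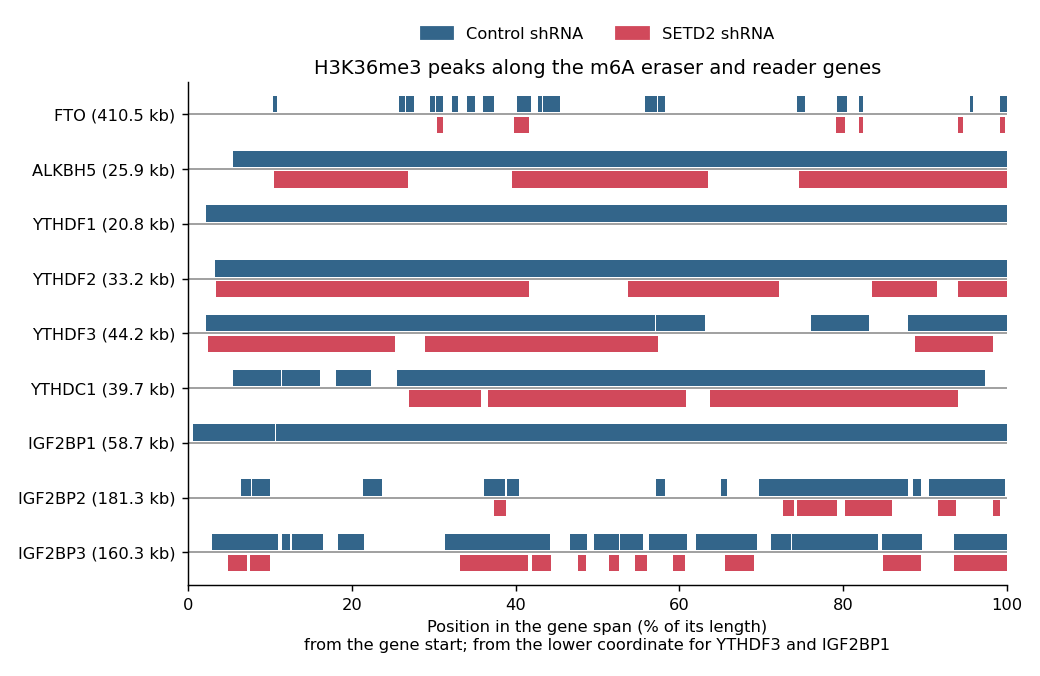
Peaks along each gene as a percent of its span, in the control (blue, above the line) and the SETD2 knockdown (red, below), from the gene start or, for YTHDF3 and IGF2BP1, from the lower coordinate. Long control domains at ALKBH5, YTHDF2 and YTHDC1 were called as 3 or 4 shorter knockdown peaks, and YTHDF1 and IGF2BP1 had none.

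At YTHDF2, the part near the start was kept. The control peak, chr1:29064235-29098424, was 34.2 kb wide with 3966 tags, a density of 2.42 (2.35 to 2.50) and a fold enrichment of 18.02. The first of 4 knockdown peaks, chr1:29064250-29076954, began 1.117 kb from the gene start and held 1453 tags at a density of 1.71 (1.62 to 1.80), with an FDR of 0%. The other 3 knockdown peaks, towards the end of the gene, had densities of 0.881 to 0.937 and FDRs of 60.6% to 73.8%. For the position of the signal each gene was split into 3 equal parts. Control peaks covered 90.0% of the first part of YTHDF2 and knockdown peaks 89.9%, while in the last part the values were 100% and 58.4%. The difference in coverage at YTHDF2 thus lay almost wholly past the first part.

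At YTHDC1 coverage differed most in the first part, mainly through weak control peaks. Control peaks covered 67.7% of the first part and knockdown peaks 19.1%, and in the last part the values were 92.1% and 81.9%. The main control peak, chr4:69177149-69205697, was 28.5 kb wide with 3486 tags and a density of 2.55 (2.47 to 2.64). Another 3 control peaks, smaller and nearer the start, with 73 to 114 tags and FDRs of 11.4% to 15.9%, had no knockdown peak. Over the whole list, 14.8% of control peaks with up to 200 tags had one. Most of the control coverage of the first part, and most of its difference from the knockdown, thus came from these 3 weak peaks. The main control peak began 10.127 kb from the gene start and the first knockdown peak 10.715 kb. The contrast with YTHDF2 therefore rests mostly on weak peaks. The 3 knockdown peaks had nearly equal densities, 1.13 (1.06 to 1.20), 1.13 (1.05 to 1.22) and 1.11 (0.978 to 1.25). Their FDRs were 91.0%, 5.83% and 40.3%, and the widest of them had the lowest score, 55.5, although its fold enrichment of 4.52 was above 74.5% of knockdown peaks. The score and the fold enrichment thus ranked these peaks differently.

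ALKBH5 also kept most of its coverage. Its control peak, chr17:18088497-18114316, was 25.8 kb wide with 2745 tags, a density of 2.22 (2.14 to 2.31) and a fold enrichment of 15.54. In the knockdown, chr17:18097334-18103522 had 581 tags (95% interval of the density 1.29 to 1.52) and an FDR of 1.96%, and chr17:18106410-18113350 had 530 tags, a density of 1.14 (1.04 to 1.24) and an FDR of 3.51%. The knockdown peak nearest the start, with 285 tags and a fold enrichment of 2.28, had an FDR of 84.1%. Coverage was 48.9% in the first part and 76.2% in the last part, against 83.5% and 100% in the control.

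The summed knockdown peaks also bound the difference over the same interval, because the tags between them can only add to it. Over the bounds of the control domain, the knockdown held at least 0.959 at YTHDF2, 0.990 at YTHDC1 and 0.806 at ALKBH5. The control was therefore at most 2.53, 2.57 and 2.75 times as dense there with filtered tags as depth, and at most 3.803, 3.88 and 4.14 times with the tags outside peaks as depth, counting error aside. These 3 genes are those whose knockdown peaks all lay wholly inside 1 control domain.

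YTHDF3 had the highest knockdown coverage relative to its control coverage, 75.9%. It had 5 control peaks and 3 knockdown peaks, and 4 of the 5 had a knockdown peak, though for 1 of the 4 the overlap was 5.03% of its length. The densest control peak of the gene had 1859 tags, a density of 2.93 (2.80 to 3.07) and a fold enrichment of 20.50, above 99.1% of the control list and the highest among the 9 genes. The knockdown peak over it had 1261 tags, a density of 1.49 (1.41 to 1.58) and an FDR of 1.12%, and its highest point lay 0.016 kb from that of the control. The position of strongest signal was thus nearly the same in both lists.

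IGF2BP2 and IGF2BP3, both far longer than the YTH genes, were marked in pieces. In the control IGF2BP2 had 11 peaks that covered 40.2% of its 181 kb, with 85.2% of the last part covered and 17.1% of the first. Its 3 control peaks in the first part had 128 to 237 tags, and none of them had a knockdown peak. In the whole list 14.8% of control peaks with up to 200 tags had one, and 46.3% above 200 and up to 500. The widest control peak of IGF2BP2, chr3:185395149-185416455, was 21.3 kb with 1931 tags and a density of 1.89 (1.81 to 1.98). It had the highest fold enrichment of the gene, 16.15, and 3 knockdown peaks lay over it. The control peak nearest the start, chr3:185528818-185531102, had 128 tags and a fold enrichment of 3.54. In the knockdown 7 peaks covered 16.5% of the gene: 44.9% of the last part, 4.57% between and 0% of the first.

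IGF2BP3 had the most knockdown peaks of the 9 genes, 12, against 14 in the control. Control peaks covered 73.2% of its 160 kb and knockdown peaks 35.2%. The widest control peak, chr7:23439299-23459863, also had the highest fold enrichment, 12.56, with 1682 tags and a density of 1.71 (1.63 to 1.79). A knockdown peak of 13.3 kb over it had 1104 tags and a density of 1.24 (1.16 to 1.31). The control peak nearest the start, chr7:23492554-23505504, had 839 tags, a density of 1.35 (1.26 to 1.45) and 2 knockdown peaks over it. A control peak of 16.8 kb in the last part of the gene, chr7:23375037-23391787, had 1596 tags and a density of 1.99 (1.89 to 2.09) but no knockdown peak. It was the only one of the gene's control peaks above 1000 tags without one.

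The signal at one end of IGF2BP3 may belong in part to a neighbour. The control peak at its far end, chr7:23339949-23360106, ran 9.88 kb past the span, and the RefSeq table (GRCh38.p14) lists the protein-coding gene MALSU1 as overlapping IGF2BP3. The 2467 tags of this peak cannot be divided between the genes. The table also lists non-coding genes that overlap FTO (among them FTO-IT1), IGF2BP1 (LOC124904020) and IGF2BP2 (among them IGF2BP2-AS1). The histone mark carries no strand, so the parts of these genes in the signal cannot be told apart either.

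FTO, the longest gene at 411 kb, was the least marked. Its 19 control peaks covered 17.0% of the span and were all under 9 kb, with densities of 0.895 to 1.51 and fold enrichments of 2.69 to 5.32. The widest, chr16:53915889-53924490, had 485 tags and no knockdown peak. The highest in fold enrichment, chr16:54145110-54149065, lay over the end of the gene with 286 tags, a density of 1.51 (1.34 to 1.70) and an FDR of 0.64%. The nearest to the start, chr16:53780596-53782676, had 106 tags and an FDR of 18.2%. In fold enrichment no FTO peak stood above more than 57.6% of control peaks or 60.8% of knockdown peaks. In density the highest stood above 78.7% and 85.0%.

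In the knockdown FTO had 6 peaks that covered 5.47% of the span, with FDRs of 62.0% to 92.4%. Of its 19 control peaks, which held 84 to 485 tags, 14 had no knockdown peak. Over the whole list 39.5% of control peaks had one. The share was 14.8% for those with up to 200 tags and 46.3% above 200 and up to 500. The count at FTO is thus not set apart from that of other control peaks this small. One knockdown peak, chr16:54123654-54126189, overlapped no control peak and was the only such peak among the 9 genes. It had 149 tags, a density of 0.876 (0.741 to 1.03), a fold enrichment of 2.54 and an FDR of 88.6%.

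The second question was how dense the signal was inside the peaks of each gene. In the control the densest were YTHDF1 at 3.76 (3.64 to 3.88) and IGF2BP1 at 3.41 (3.34 to 3.48). Next came YTHDF2 at 2.42 (2.35 to 2.50), YTHDC1 at 2.29 (2.22 to 2.36), ALKBH5 at 2.22 (2.14 to 2.31) and YTHDF3 at 2.05 (1.98 to 2.11). They were lower at the long genes, IGF2BP2 at 1.74 (1.69 to 1.78), IGF2BP3 at 1.60 (1.56 to 1.63) and FTO at 1.14 (1.11 to 1.18). The intervals of YTHDC1 overlapped those of YTHDF2 and ALKBH5, and no other neighbours in this order overlapped. In the knockdown the order was YTHDF2 at 1.32 (1.26 to 1.37), YTHDF3 at 1.28 (1.23 to 1.33), ALKBH5 at 1.20 (1.14 to 1.26), YTHDC1 at 1.13 (1.08 to 1.18), IGF2BP3 at 1.065 (1.03 to 1.095), IGF2BP2 at 1.045 (1.00 to 1.09) and FTO at 0.980 (0.931 to 1.03). There every pair of neighbours overlapped, while the intervals of YTHDF2 and YTHDF3 lay wholly above those of YTHDC1 and of the genes after it.

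**Figure D4:**
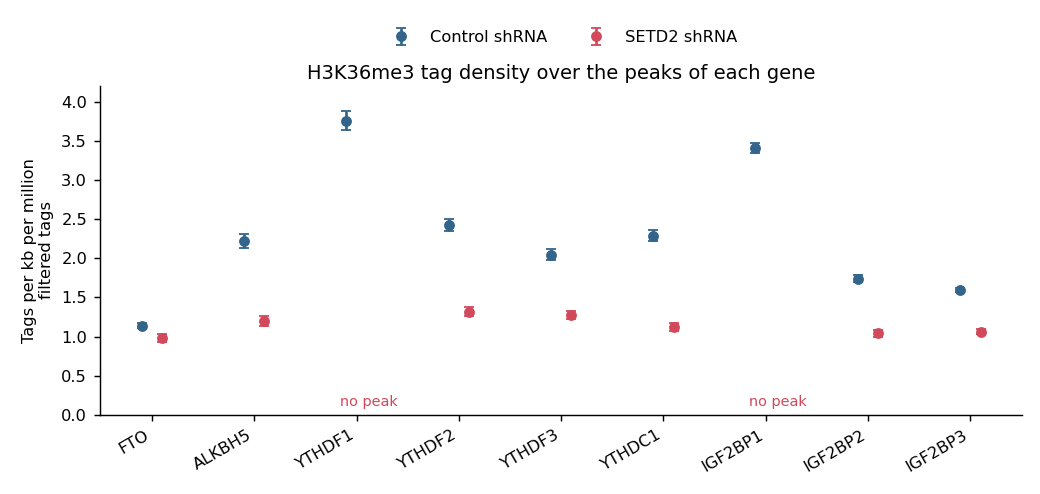
Tags per kb per 1000000 filtered tags over the summed peaks of each gene, in the control (blue) and the SETD2 knockdown (red), with exact Poisson 95% intervals for counting error. Control values ran from 1.14 at FTO to 3.76 at YTHDF1, and knockdown values from 0.980 to 1.32 at the 7 genes with a peak.

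All 7 genes with peaks in both lists had the lower density in the knockdown, by more than counting error. At FTO the log2 ratio of knockdown over control was -0.22 (exact conditional binomial 95% interval -0.31 to -0.13). It was -0.58 (-0.63 to -0.53) at IGF2BP3, -0.68 (-0.76 to -0.61) at YTHDF3, -0.73 (-0.81 to -0.66) at IGF2BP2, -0.88 (-0.96 to -0.80) at YTHDF2, -0.89 (-0.98 to -0.79) at ALKBH5 and -1.02 (-1.10 to -0.94) at YTHDC1. YTHDC1 was thus 2.03 times as dense in the control (1.92 to 2.15). These intervals compare 2 pooled libraries and not the conditions, and the 2 densities of a gene rest on different intervals, those of each list's own peaks. Control peaks without a knockdown peak count on the control side only, so the ratios do not rank the genes by loss of signal. The tags summed over peaks gave another order: per 1000000 filtered tags they went from 80.3 to 22.0 at FTO (3.65 times lower) and from 127 to 31.3 at IGF2BP2 (4.05 times), and were 2.27 times lower at YTHDF3 to 2.87 times lower at IGF2BP3 for the other 5. These sums move with the length called, which was 69.7 and 22.5 kb at FTO and 72.8 and 29.9 kb at IGF2BP2.

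The size of these ratios depends on the depth that tags are divided by. Peaks held 42.0% of filtered control tags and 12.8% of filtered knockdown tags. With the tags outside peaks as depth, the median over the 7 genes went from -0.73 to -1.32.

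The closest comparison was between peaks of the 2 lists that overlapped each other by at least 50%. There were 13 such pairs, 5 at FTO, 3 at YTHDF3, 3 at IGF2BP3 and 2 at IGF2BP2. All 13 had the lower density in the knockdown, beside 98.1% of the 7543 pairs in the whole lists, and the interval lay below 0 for 12 of them. The median log2 ratio was -0.52, beside -0.59 (quartiles -0.81 and -0.38) for all pairs. The median of the 9 genes' pairs thus lay inside the quartiles of the whole. A pair needs a knockdown peak that passed the caller's limit, so the 33 of 58 control peaks without one could not enter. The ratios of pairs are therefore not those of all control peaks of these genes.

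**Figure D5:**
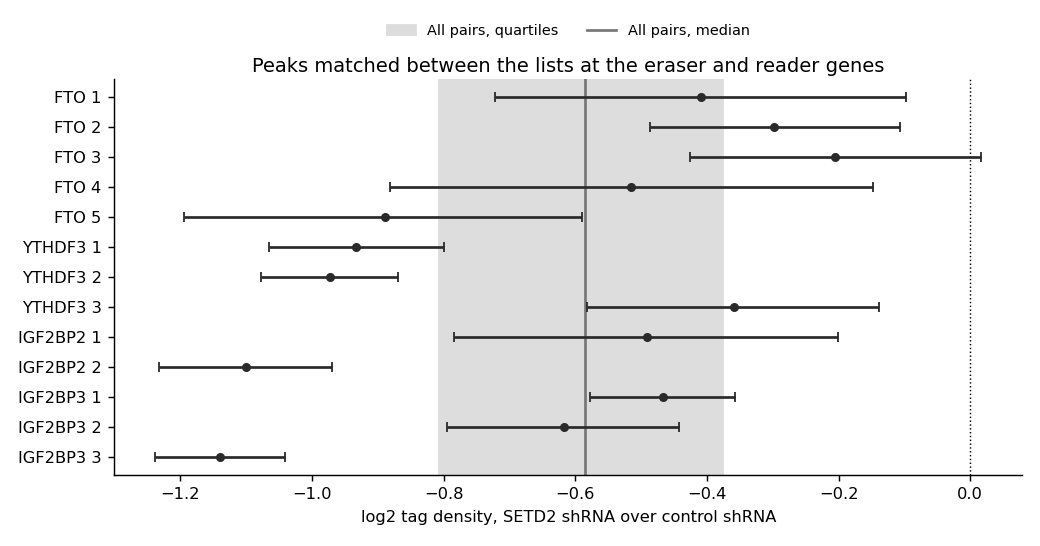
The log2 ratio of tag density, SETD2 knockdown over control, for the 13 matched pairs, numbered within each gene from its start (YTHDF3 from its lower coordinate), with exact conditional binomial 95% intervals. The grey band and line show the quartiles (-0.81 and -0.38) and the median (-0.59) of all 7543 pairs; 12 of the 13 intervals lie below 0.

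Within a gene some pairs differed by more than their counting error. At IGF2BP3 the pair at the far end, in the peak that runs past the span, had a log2 ratio of -1.14 (-1.24 to -1.04), and that over the widest control peak -0.47 (-0.58 to -0.36). The remaining pair of IGF2BP3, at control peak chr7:23366428-23374308, had -0.62 (-0.79 to -0.44). At YTHDF3 the pairs had -0.93 (-1.07 to -0.80) and -0.97 (-1.08 to -0.87) over the wider peaks, and -0.36 (-0.58 to -0.14) at the upper end of the gene. At IGF2BP2 the values were -1.10 (-1.23 to -0.97) near the far end and -0.49 (-0.78 to -0.20) in the middle of the gene. In each of these genes the pair nearest 0 had a lower control density than the pair furthest from 0, and since the control density is part of the ratio this relation is in part built in. It did not hold for every pair. The remaining pair of IGF2BP3 had the lowest control density of that gene's pairs, 1.53, yet lay further from 0 than the pair at 1.71.

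At FTO the 5 pairs ran from -0.20 (-0.43 to 0.02) to -0.89 (-1.19 to -0.59), the latter over the end of the gene. Control densities at these pairs were 1.12 to 1.51 and knockdown densities 0.815 to 1.18. The summits of the 13 pairs lay a median of 0.177 kb apart, beside 0.308 kb for all pairs, and 11 of the 13 were under 1 kb apart.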

How the data were processed

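The deposited tables hold H3K36me3 peaks of HepG2 cells, 1 table per condition, made from merged replicates with MACS 1.4.2 (p-value limit 1e-05, fragment size 294 bp, at most 1 tag kept at a position), per the file headers. Reads were processed with Bowtie 1.1.2 and FastQC 0.11.5 on hg19, per the submitters' processing notes. The deposited tag counts per peak are whole and not normalized. The deposited score is the p-value on a -10 log10 scale, the deposited fold enrichment is a ratio over local input background, and the deposited FDR is in percent. The shorter deposited lists hold the same peaks with an FDR of 5% or less, with the fold enrichment as their value.

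From these, peaks over each span, covered length, tag density and overlaps of at least 1 bp were computed over the whole lists, with exact Poisson and Clopper-Pearson 95% intervals. Depth was 47880817 and 67053273 filtered tags. All 9 genes are named, with every peak of genes with up to 3 peaks per list and, for others, the widest, the highest in fold enrichment and the one nearest the start; further peaks were named after their values were seen. The spans were given with the gene list, and the genes, their lists and the alternatives were chosen with earlier results of these data known. Other m6A genes and genes of similar pattern were not analysed here, since they need gene spans on hg19. No source used here says whether the replicates were grown separately. Python 3.11.15, pandas 2.3.3, NumPy 2.4.6, SciPy 1.17.1 and matplotlib 3.10.9 were used, and the overlap and interval steps were tested on simulated data.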

Additional observations from a re-analysis of the deposited data

How the results depend on the processing

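Coverage was recomputed under 5 alternatives (limits on FDR, score or fold enrichment, the shorter lists and spans widened by 5000 bp) and was lower in the knockdown under each. All 35 density ratios of single genes under alternatives lay below 0, from -1.61 to -0.13, but many of them could hardly change sign. A change of depth shifts the ratios of all genes by the same amount, and the midpoint rule changed only that of IGF2BP3. Sizes moved with the limit on peaks. With an FDR of 5% or less, which the shorter lists repeat and which means a score of 227.88 in the control but 939.74 in the knockdown, there were 24 control and 4 knockdown peaks, 12.5% of control peaks were kept and the knockdown covered 11.1% of the control length; the 1 matched pair left had a log2 ratio of -0.97. With a fold enrichment of 5 or more there were 22 and 5 peaks, 18.2% were kept and 15.4% was covered. With peaks within 3000 bp merged the counts were 31 control and 27 knockdown peaks, in place of 58 and 38. Under reciprocal overlap of 50% the kept share was 22.4%. With tags outside peaks as depth the median log2 ratio was -1.32 over genes and -1.11 over matched pairs. A score of 100 or more left 41 control and 26 knockdown peaks, with 41.5% of control peaks kept and a median log2 ratio of -0.62 over matched pairs. Under this score limit the knockdown covered 39.0% of the control length, with 18.2% at FTO and 45.9% at YTHDC1. With 50% of the control peak covered, the kept share was 31.0%, in place of 43.1%. The peak midpoint, spans widened by 5000 bp and all tags as depth left the summary values close to those reported. YTHDF1 and IGF2BP1 had no knockdown coverage under the 5 alternatives for coverage, but this was fixed in advance. The limits and the shorter lists only take peaks away. The widened spans stayed short of the nearest knockdown peaks, 98.4 kb from IGF2BP1 and 244 kb from YTHDF1. Without both genes, a setting chosen after seeing the data, 45.5% of control peaks were kept and 52.1% of the control length was covered. No paired analysis was possible because peaks were called on merged replicates, so leaving out a replicate could not be run either. Depth limits single small peaks: the FTO peak found only in the knockdown had 149 tags and a density interval of 0.741 to 1.03.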
